A study of Arabidopsis thaliana with 6 samples.

Results

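Starch synthesis and breakdown genes were examined as a group of 38 Arabidopsis thaliana loci, listed by their known place in the pathway, out of 21671 transcripts with reads in any library. Of the 38 genes, 15 belong to synthesis and 23 to breakdown and export of the products. All 38 had reads, and 33 passed the filter on low counts and were tested. The genes not tested were APL4, LDA, BAM6, DPE1 and MEX1. Transcripts were counted in mesophyll protoplasts (photosynthetic cells of the leaf whose walls were digested away) from Col-0 plants grown in a cycle of 16 h light and 8 h dark. In the GmWRI1 group, protoplasts were transfected with a plasmid carrying the soybean gene GmWRI1-A behind the cauliflower mosaic virus 35S promoter. In the mCHERRY group, the 35S plasmid encoded a red fluorescent protein, and these cells served as the control. Cells were incubated for 16 h, and each group has 3 libraries. Both groups therefore share wall removal, transfection and a strong promoter that is active in most plant cells. The share of cells that took up a plasmid and the light during the incubation are not given in the sources used here, and neither transgene is among the transcripts counted.

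Starch is made in the chloroplast from glucose phosphates that are activated to ADP-glucose, joined into chains by starch synthases, branched by branching enzymes and trimmed by debranching enzymes until the polymer forms a granule. In leaves it is built up by day and broken down at night, when dikinases add phosphate to the granule surface, phosphatases take it off again, and beta-amylases release maltose that leaves the chloroplast together with glucose. GmWRI1 is a soybean homolog of WRINKLED1, an AP2-type transcription factor known for raising carbon flow from sugars into fatty acids in seeds. The question was whether genes of starch synthesis and of starch breakdown differed between cells with GmWRI1 and cells with mCHERRY.

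Among starch synthesis genes, 4 were up-regulated in GmWRI1 cells (PGM1, SS1, SS4 and ISA1) and 0 were down-regulated. Among breakdown genes, the phosphatase gene LSF2 was up-regulated and the cytosolic beta-amylase gene BAM5 was down-regulated. A gene was called when its edgeR adjusted p was under 0.05 and its log2 fold change exceeded 1 in size, which 9.44% of 14762 tested genes met in the upward and 1.45% in the downward direction. The calls made up 28.6% of 14 tested synthesis genes and 5.26% of 19 tested breakdown genes in the upward direction. The low-count filter asked for 1.51 CPM (here, counts scaled by library total alone; all other CPM values are also scaled with TMM factors) in 3 libraries. ISA1 and LSF2 reached it in 0 mCHERRY libraries and PGM1 in 2, so these 3 of the 5 up-regulated genes were tested only because of their higher GmWRI1 libraries. The shares above therefore describe the genes that passed and are no support for a change of either role.

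Without the fold limit, 11 of the 33 tested genes were higher and 4 were lower at an edgeR adjusted p under 0.05, beside 20.4% and 14.6% of all tested genes. The higher genes were PGM1, SS1, SS2, SS3, SS4 and ISA1 of synthesis and ISA3, PWD, LSF2, PHS2 and PGLCT of breakdown and export. The lower genes were GBSS1 and SBE2.2 of synthesis and SEX4 and BAM5 of breakdown. The remaining 18 did not pass. Each direction was thus present in both roles. Of tested synthesis genes 42.9% were higher and 14.3% lower, and of tested breakdown genes 26.3% and 10.5%. The higher shares include PGM1, ISA1 and LSF2, which were tested only because of their higher GmWRI1 libraries. These shares too are no support for a change of either role. The median log2 fold change was 0.24 over tested synthesis genes and 0.22 over tested breakdown genes, beside -0.01 over all tested genes. Single values ran from -0.96 to 1.82 in synthesis and from -1.06 to 2.02 in breakdown. The medians include PGM1, ISA1 and LSF2 as well as APL2, which reached the filter in 1 mCHERRY and 2 GmWRI1 libraries. They are therefore no support for a change of either role. The synthesis median lay midway between APS1 (0.02) and APL2 (0.47, SE 0.56), and APL2 had only 2 to 19 counts per library. It depended on single libraries, at -0.0059 without mCHERRY library 1 and 0.43 without mCHERRY library 2. In these 2 fits APL2 itself was at -0.070 and 1.20. Whether the 2 roles differed was not tested, because the genes of a role are not replicates.

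**Figure D1:**
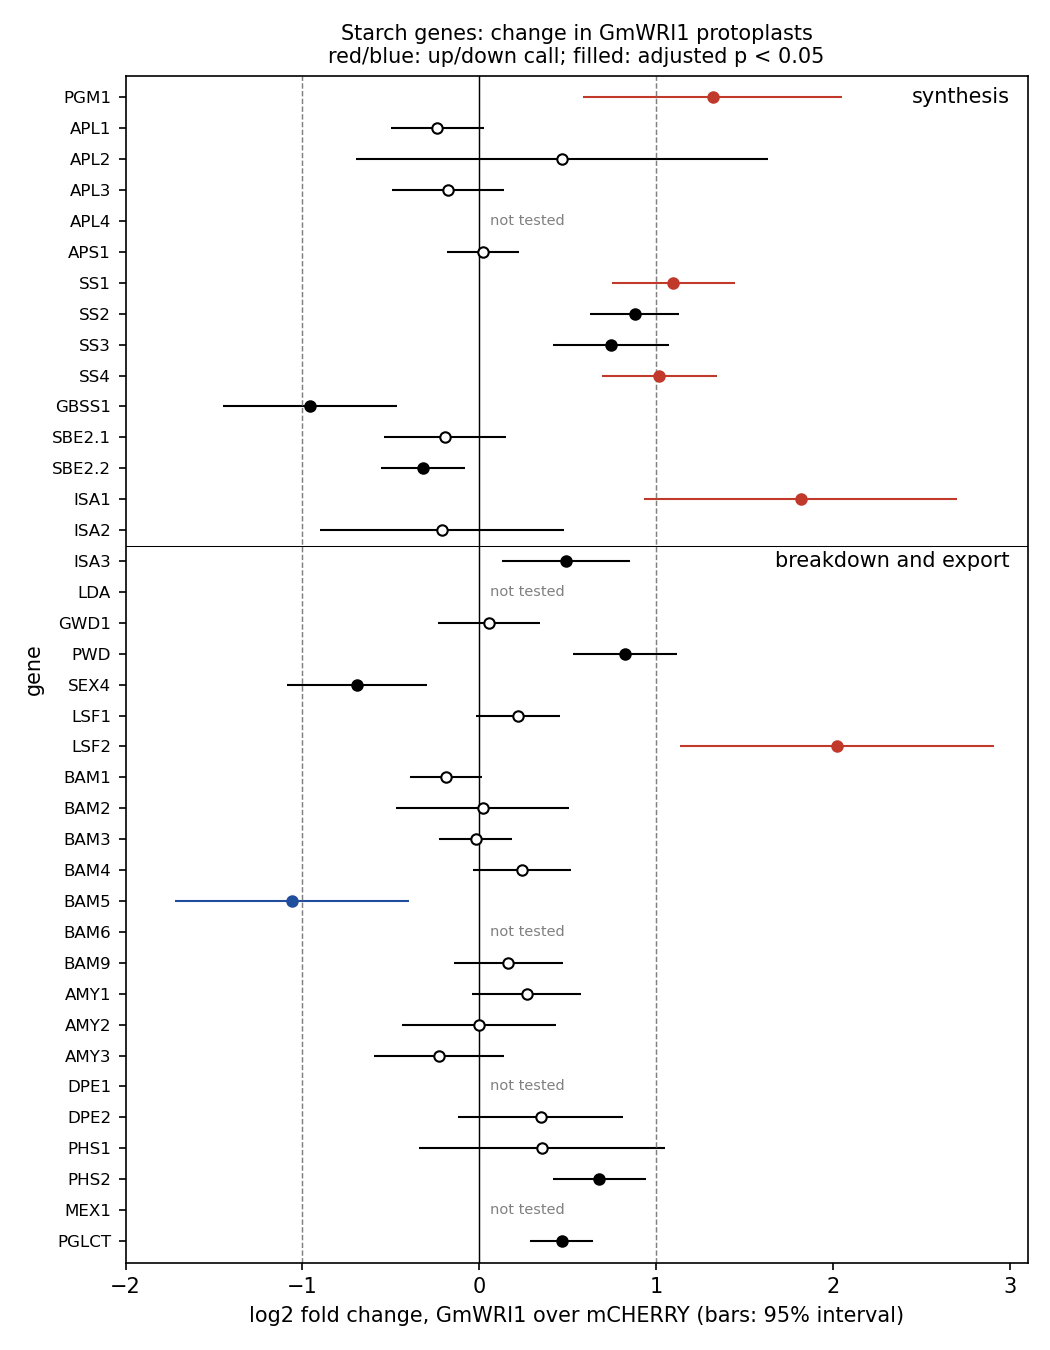
Log2 fold change of each starch gene, GmWRI1 over mCHERRY (horizontal axis), by gene (vertical axis), with synthesis above and breakdown below. Points are fitted values and bars are their 95% intervals from 3 libraries per group. Red marks the 5 up-regulated genes and blue the 1 down-regulated gene, filled points passed the adjusted p, dashed lines mark the fold limit, and the fitted values run from -1.06 (BAM5) to 2.02 (LSF2).

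The libraries held 4155836 to 11748328 gene counts, and starch genes took 0.208% to 0.231% of them. The 5 mesophyll markers (RCA, CA1, GAPA, PRK and LHCB2.1) summed to 218.9 to 225.4 CPM in mCHERRY and 424.7 to 476.6 CPM in GmWRI1 libraries. Of the 5, 3 (RCA, PRK and LHCB2.1) were up-regulated, beside 9.44% of all tested genes. GAPA rose by less than the fold limit (log2 fold change 0.88, edgeR adjusted p = 8.48e-07). CA1 had a log2 fold change of -0.15 and did not pass (edgeR adjusted p = 0.321). The part of these markers in the starch results was not tested. In bulk RNA, more or fewer cells of a type and more or less RNA per cell cannot be told apart. The guard cell list (4 genes) summed to 1.59 to 2.72 CPM in mCHERRY and 2.05 to 3.46 CPM in GmWRI1 libraries. The 5 epidermal markers summed to at most 0.990 CPM in mCHERRY and 1.97 CPM in GmWRI1 libraries, and the 4 vascular markers to at most 0.856 and 0.683 CPM. KAT1 of guard cells, SUC2 of phloem and FDH of the epidermis were at 0 in every mCHERRY library. In GmWRI1 libraries 1, 2 and 3, FDH had 16, 4 and 1 counts, while KAT1 had 4 counts in library 2 alone and SUC2 had 3 in library 1 alone.

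WRI1 proteins are known to bind the AW Box, which reads CNTNG, then 7 bases of any kind, then CG, with N for any base. Both strands of the 500 bases downstream of each annotated transcript start were searched for it in the TAIR10.1 sequence of RefSeq. At least 1 AW Box was found in 21 of 38 starch genes (55.3%), namely 8 of 15 synthesis genes and 13 of 23 breakdown genes, beside 41.2% of 21431 nuclear genes with reads. Of the 30 boxes in starch genes, 18 lay in coding exons, 7 in 5′ UTRs, 4 in introns and 1 across the edge of a coding exon. The following sites are examples from genes that differed in either direction, with APS1 as an example of a gene whose level did not pass the test. The list is not complete. It leaves out the boxes of ISA3 and PHS2, which were higher, and further boxes of PGLCT and APS1. It also leaves out the boxes of the other genes that did not pass or were not tested. Capitals mark the box, coordinates are those of its 14 bases, and the sequence is read 5′ to 3′ on the given chromosome strand. Base positions count from 1 at the transcript start, in the direction of the gene, to the near end of the box.
PGM1, chr5:21067916-21067929, minus strand, base 399 of the transcribed region, coding exon: aacaatgaCGTCGACCTACACGagattcga
SS1, chr5:8267030-8267043, plus strand, base 465, coding exon: tcggatttCCTCGTTTTCGACGgagattca
SS4, chr4:10082290-10082303, plus strand, base 183, coding exon: agagagaaCATGGAAGTTCTCGtcgatttt
SS4, chr4:10082517-10082530, plus strand, base 410, intron: tgaatgctCATAGATGTGAACGtgtttata
ISA1, chr2:16666199-16666212, minus strand, base 349, coding exon: cttctgtcCTTTGCGGAAATCGaaatcgga
ISA1, chr2:16666317-16666330, minus strand, base 467, coding exon: attgacgcCGTCGTCTCTGACGgtgggtcc
PWD, chr5:9261482-9261495, plus strand, base 4, 5′ UTR: aatttcccCATAGGAAAAAGCGaaactctc
PGLCT, chr5:5272632-5272645, minus strand, base 76, 5′ UTR: cagagaaaCTTCGGAGACTCCGcgatttga
GBSS1, chr1:11923725-11923738, plus strand, base 129, 5′ UTR: agtggaggCTTGGACTGACACGagtgacac
SBE2.2, chr5:931797-931810, plus strand, base 36, 5′ UTR: aaaaaaaaCTTAGTAGCGAACGaacgaacc
SEX4, chr3:19353617-19353630, minus strand, base 99, 5′ UTR: aattgtatCGTCGTGAGTCGCGtgaccgtc
APS1, chr5:19570405-19570418, minus strand, base 168, coding exon: gaaagagtCCTCGTGGGAACCGcctccgtg

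Boxes were present in genes that rose, in genes that fell and in genes that did not pass the test. An AW Box was found in 8 of the 11 genes with a higher level, the exceptions being SS2, SS3 and LSF2, and in 3 of the 4 with a lower level, the exception being BAM5. It was found in 7 of the 18 genes that did not pass the adjusted p and in 3 of the 5 not tested. The share with a box among all higher, lower or other tested genes is not given here. Without that share these counts cannot tell whether box and response are linked, and a link was not tested. PGLCT held 4 boxes and APS1 held 3, the highest numbers among the 38 genes. LSF2, with the largest fitted increase, and the abundant beta-amylase genes BAM1 and BAM3 held none in this window. The boxes of the 3 lower genes all lay in 5′ UTRs, as did those of ISA3 and PWD and the first box of PGLCT, which were higher. A match says only that the letters are present, and binding in these protoplasts was not measured.

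**Figure D2:**
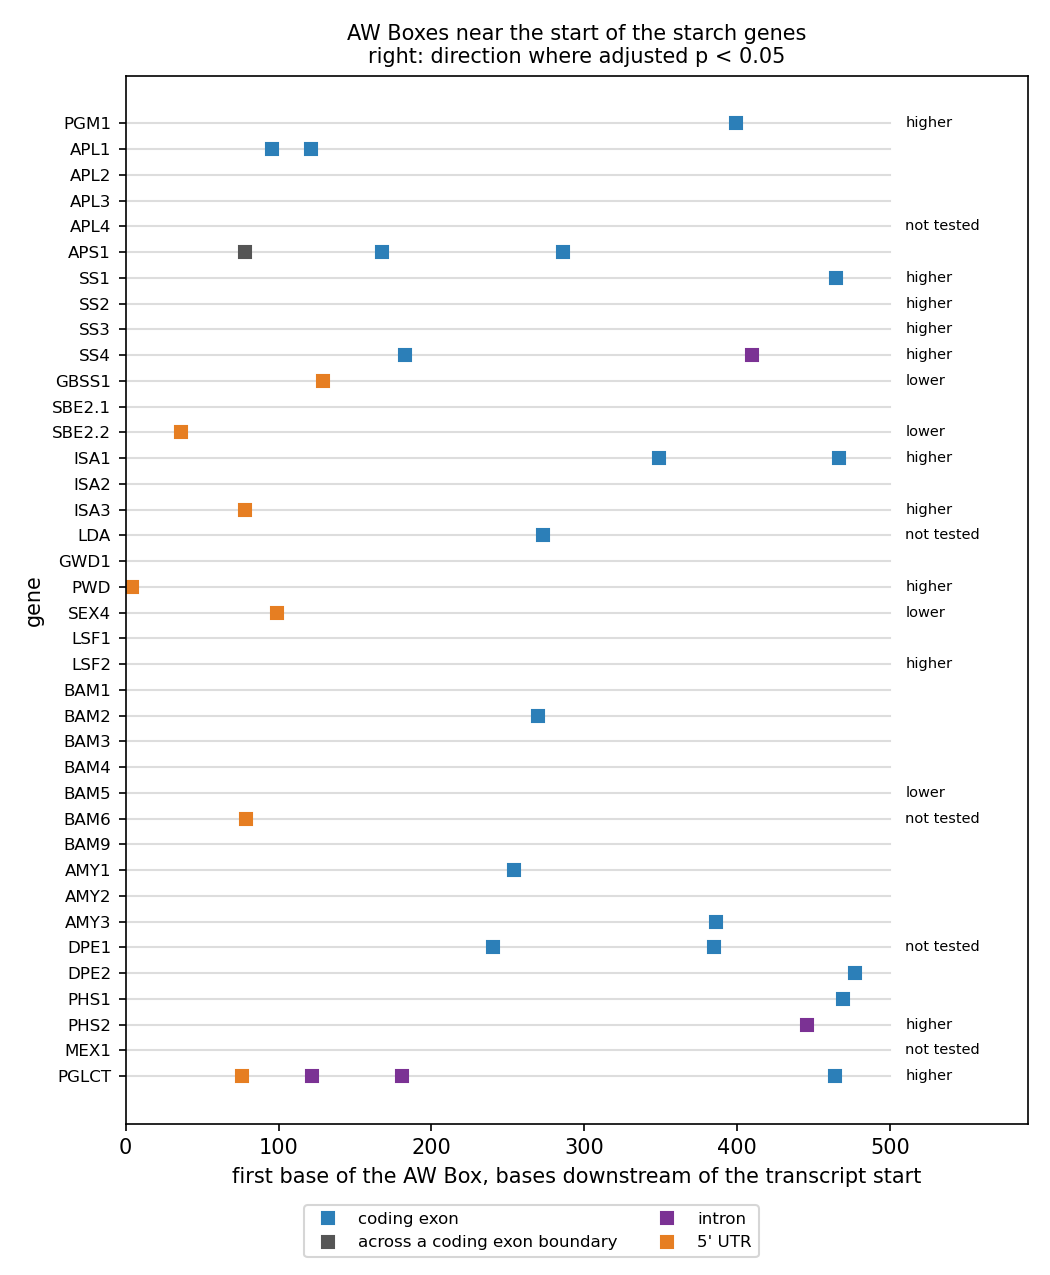
Position of each AW Box in the starch genes, as the distance of its first base from the annotated transcript start (horizontal axis, bases), by gene (vertical axis), with the annotated feature in colour. The right margin gives the direction of genes that passed the adjusted p. The 30 boxes spread over the whole window and occur in 8 of 11 higher and 3 of 4 lower genes.

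The plastidial phosphoglucomutase gene PGM1 (AT5G51820, chr5:21063298-21068327), whose enzyme converts glucose 6-phosphate to the glucose 1-phosphate used for ADP-glucose, was up-regulated at a low level. Libraries 1, 2 and 3 held 13, 7 and 8 counts with mCHERRY and 49, 26 and 18 counts with GmWRI1. All GmWRI1 libraries lay above all mCHERRY libraries, as they did for 24.9% of all tested genes. The mean was 1.57 ± 0.422 CPM (SD, n = 3) in mCHERRY and 3.81 ± 0.329 CPM in GmWRI1 libraries. This gave a 2.49-fold increase (log2 fold change 1.32, SE 0.35, 95% interval 0.59 to 2.05, edgeR adjusted p = 0.0056). PGM1 was called in each of 14 alternative fits. It passed the main low-count filter only through its GmWRI1 libraries, so these calls are no added support.

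ADP-glucose pyrophosphorylase, which makes the ADP-glucose that starch synthases use, consists of catalytic small subunits and regulatory large subunits, and 0 of its 4 tested genes passed the adjusted p. APS1 (AT5G48300), the small subunit gene and the most abundant synthesis gene per length, measured 151.4, 150.9 and 128.1 CPM in mCHERRY and 148.9, 131.3 and 157.9 CPM in GmWRI1 libraries. The groups overlapped, and the log2 fold change was 0.02 (SE 0.10, 95% interval -0.18 to 0.22, edgeR adjusted p = 0.902). APL1, the main large subunit gene of leaves, measured 31.4, 32.9 and 33.4 CPM in mCHERRY and 29.3, 24.1 and 29.3 CPM in GmWRI1 libraries. Its GmWRI1 libraries were the lower ones, as for 21.1% of all tested genes, but its log2 fold change of -0.24 (95% interval -0.50 to 0.03, edgeR adjusted p = 0.157) did not pass. Of its sequence words of 36 bases, 17.4% also occur in neighbouring annotated RNAs, a larger share than for the other genes of this enzyme. This makes its level less certain. APL3, a large subunit known to respond to sugars, had a log2 fold change of -0.18 (edgeR adjusted p = 0.393). APL2 had only 2 to 19 counts per library and passed the filter only with its GmWRI1 libraries. APL4 had 0 to 3 counts and was not tested. Among the large subunits, the share of APL1 differed by less than the replicate spread, at 64.7% ± 1.85 (SD, n = 3) of the 4 APL genes per kb in mCHERRY and 62.9% ± 1.80 in GmWRI1 libraries. The ratio of APS1 to the 4 APL genes per kb did not overlap between groups, at 2.33 to 2.83 in mCHERRY and 3.01 to 3.07 in GmWRI1 libraries. This ratio was not tested. Among single tested genes, 24.9% had all GmWRI1 libraries above and 21.1% had all below.

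The soluble starch synthase genes SS1 to SS4 all rose, and the granule-bound synthase gene GBSS1 fell. SS1 (AT5G24300, chr5:8266566-8271205), which makes the short chains of amylopectin, had 107, 64 and 41 counts in mCHERRY and 322, 179 and 98 in GmWRI1 libraries. These correspond to 11.2 ± 1.63 CPM (SD, n = 3) and 24.0 ± 3.89 CPM, a 2.14-fold increase (log2 fold change 1.10, SE 0.17, 95% interval 0.75 to 1.45, edgeR adjusted p = 2.22e-05). The lowest GmWRI1 library (19.8 CPM) lay above the highest mCHERRY library (13.1 CPM), although the log2 fold change was 0.99, just under the fold limit, without GmWRI1 library 1. SS4 (AT4G18240, chr4:10082108-10087203), which is needed to start granules, measured 14.2, 10.1 and 13.9 CPM in mCHERRY and 25.0, 26.7 and 25.5 CPM in GmWRI1 libraries. The groups did not overlap, and the rise was 2.02-fold (log2 fold change 1.02, SE 0.16, 95% interval 0.69 to 1.34, edgeR adjusted p = 2.41e-05). SS4 lies at the edge of the fold limit and its log2 fold change dropped below it to 0.87 without mCHERRY library 2 and to 0.99 without GmWRI1 library 2.

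SS2 and SS3 rose by less than the fold limit. SS2 (AT3G01180), which lengthens chains to intermediate length and was the most abundant synthase gene per length, measured 23.8, 26.6 and 30.2 CPM in mCHERRY and 47.4, 50.3 and 48.9 CPM in GmWRI1 libraries. The groups did not overlap, at 26.9 ± 3.18 CPM (SD, n = 3) against 48.9 ± 1.46 CPM, and the rise was 1.84-fold (log2 fold change 0.88, SE 0.12, 95% interval 0.63 to 1.13, edgeR adjusted p = 5.84e-06). SS3 (AT1G11720), which makes long chains, measured 14.6, 14.9 and 10.6 CPM in mCHERRY and 23.1, 24.3 and 20.6 CPM in GmWRI1 libraries. The groups were again apart, with a 1.67-fold rise (log2 fold change 0.74, SE 0.16, 95% interval 0.41 to 1.07, edgeR adjusted p = 0.000844). SS2 and SS3 passed the adjusted p in each of 14 alternative fits.

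GBSS1 (AT1G32900, chr1:11920390-11923866), the synthase bound in the granule that makes amylose and a gene known for its daily rhythm, had 82, 45 and 37 counts in mCHERRY and 47, 34 and 26 in GmWRI1 libraries. Scaled for depth these were 10.03, 7.30 and 9.15 CPM against 4.01, 4.70 and 5.26 CPM, and all GmWRI1 libraries were below all mCHERRY libraries. The level fell to 0.516 of that in mCHERRY cells (log2 fold change -0.96, SE 0.24, 95% interval -1.45 to -0.46, edgeR adjusted p = 0.00313), which is under the fold limit. GBSS1 passed that limit without mCHERRY library 2 (-1.08) or without GmWRI1 library 3 (-1.02). The sum of SS1 to SS4 rose from 64.2 ± 1.93 CPM (SD, n = 3) to 121.3 ± 5.81 CPM. Per kb of transcript, the soluble synthases together stood at 5.38 ± 0.720 times GBSS1 in mCHERRY and 19.4 ± 3.32 times GBSS1 in GmWRI1 libraries, with ranges of 4.78 to 6.18 and 16.0 to 22.6 that did not overlap. This ratio was not tested.

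**Figure D3:**
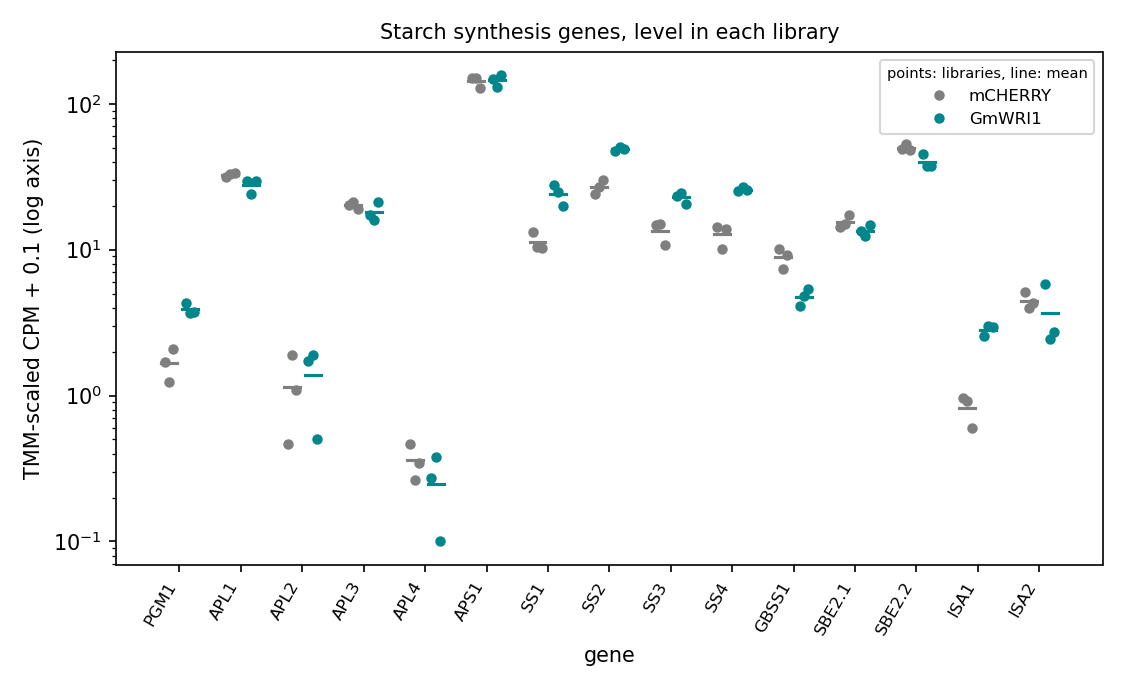
Level of each starch synthesis gene in the 3 mCHERRY (grey) and 3 GmWRI1 (teal) libraries, as TMM-scaled CPM plus 0.1 on a log axis (vertical), by gene (horizontal). Points are libraries and lines are group means. SS1, SS2, SS3, SS4, PGM1 and ISA1 lie higher in all GmWRI1 libraries, GBSS1, SBE2.2 and APL1 lie lower, and APS1 overlaps.

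Branching and synthesis-side debranching genes moved in different ways. SBE2.2 (AT5G03650, chr5:931762-937702), the more abundant branching enzyme gene, measured 48.8, 53.1 and 48.2 CPM in mCHERRY and 44.85, 37.3 and 37.4 CPM in GmWRI1 libraries. The groups did not overlap and the level fell to 0.802 of that in mCHERRY cells (log2 fold change -0.32, SE 0.11, 95% interval -0.56 to -0.08, edgeR adjusted p = 0.0348). It passed the adjusted p in 8 of 14 alternative fits. SBE2.1, the other branching enzyme gene, had a log2 fold change of -0.20 (95% interval -0.54 to 0.15, edgeR adjusted p = 0.388) and overlapping groups. SBE2.2 held 76.3% ± 2.24 (SD, n = 3) of the pair's level per kb in mCHERRY and 74.6% ± 2.79 in GmWRI1 libraries, a difference within the spread.

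ISA1 and ISA2 encode the subunits of the isoamylase that trims growing amylopectin so that it can crystallise. ISA1 (AT2G39930, chr2:16665851-16672494), the catalytic subunit, had 7, 5 and 2 counts in mCHERRY and 29, 21 and 14 in GmWRI1 libraries. It was low in both groups but higher in every GmWRI1 library, at 0.721 ± 0.197 CPM (SD, n = 3) against 2.74 ± 0.228 CPM. The fitted rise was 3.52-fold (log2 fold change 1.82, SE 0.43, 95% interval 0.93 to 2.70, edgeR adjusted p = 0.00203), and ISA1 was called in each of 14 alternative fits. ISA1 passed the main low-count filter only through its GmWRI1 libraries, so these calls are no added support. Of its sequence words of 36 bases, 16.5% also occur in another annotated RNA that is not among the counted transcripts. ISA2, the subunit without catalytic activity, measured 5.01, 3.89 and 4.21 CPM in mCHERRY and 5.72, 2.35 and 2.63 CPM in GmWRI1 libraries. GmWRI1 library 1 of ISA2 was the highest of all 6 and the other two GmWRI1 libraries were the lowest, and the log2 fold change of -0.21 (95% interval -0.90 to 0.48, edgeR adjusted p = 0.663) did not pass.

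Breakdown starts at the granule surface, where glucan, water dikinase adds phosphate to glucose units and phosphoglucan, water dikinase adds more to glucans that already carry it. PWD (AT5G26570, chr5:9261479-9267732), the phosphoglucan dikinase gene, had 136, 117 and 86 counts in mCHERRY and 399, 260 and 142 in GmWRI1 libraries. At 16.6, 19.0 and 21.3 CPM against 34.1, 35.95 and 28.7 CPM the groups were apart. PWD rose 1.77-fold (log2 fold change 0.82, SE 0.14, 95% interval 0.53 to 1.12, edgeR adjusted p = 8.35e-05) and passed the adjusted p in each of 14 alternative fits. GWD1, whose enzyme acts first, measured 20.3, 22.1 and 18.8 CPM in mCHERRY and 22.1, 21.6 and 19.8 CPM in GmWRI1 libraries. These groups overlapped, with a log2 fold change of 0.06 (95% interval -0.23 to 0.35, edgeR adjusted p = 0.798). The difference between the responses of PWD and GWD1 was not tested.

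The glucan phosphatases take the phosphate off again, and their genes moved in opposite directions. SEX4 (AT3G52180, chr3:19349600-19353728), the main phosphoglucan phosphatase of leaves, measured 14.2, 17.04 and 15.3 CPM in mCHERRY and 7.77, 9.68 and 12.1 CPM in GmWRI1 libraries. It was lower in all GmWRI1 libraries, at 0.619 of the mCHERRY level (log2 fold change -0.69, SE 0.19, 95% interval -1.09 to -0.30, edgeR adjusted p = 0.00697), and passed the adjusted p in 13 of 14 alternative fits. LSF2 (AT3G10940, chr3:3422034-3423455), a phosphatase with another position preference on the glucan, had 8, 3 and 3 counts in mCHERRY and 31, 24 and 18 in GmWRI1 libraries. Its libraries were all under 1 CPM with mCHERRY and between 2.65 and 3.64 CPM with GmWRI1. The fitted rise of 4.06-fold (log2 fold change 2.02, SE 0.43, 95% interval 1.13 to 2.91, edgeR adjusted p = 0.000789) was the largest among tested starch genes and was called in each of 14 alternative fits. LSF2 passed the main low-count filter only through its GmWRI1 libraries, so these calls are no added support. LSF1, a related protein needed for normal breakdown that lacks known phosphatase activity, was the most abundant of the 3. It measured 52.95, 58.3 and 61.1 CPM in mCHERRY and 56.4, 73.55 and 70.8 CPM in GmWRI1 libraries, which overlapped (log2 fold change 0.22, 95% interval -0.02 to 0.46, edgeR adjusted p = 0.153). Per kb, LSF1 held 71.2% ± 1.32 (SD, n = 3) of the level of the 3 genes in mCHERRY and 76.6% ± 2.12 in GmWRI1 libraries, ranges that did not overlap. This share was not tested.

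Beta-amylases cut maltose from chain ends, and 2 of the 7 genes dominated. BAM1 (AT3G23920), a chloroplast enzyme known for stress responses and for guard cells, measured 1006, 1007 and 1172 CPM in mCHERRY and 936.4, 822.2 and 1034 CPM in GmWRI1 libraries. BAM3 (AT4G17090), the main enzyme of starch breakdown in leaves at night, measured 360.3, 376.8 and 326.5 CPM in mCHERRY and 385.4, 297.2 and 366.5 CPM in GmWRI1 libraries. Both overlapped between groups. The log2 fold change was -0.19 for BAM1 (95% interval -0.39 to 0.01, edgeR adjusted p = 0.142) and -0.02 for BAM3 (95% interval -0.23 to 0.19, edgeR adjusted p = 0.899). A share of 23.4% of the 36-base words of BAM3 also occurs in an annotated RNA not among the counted transcripts. BAM1 stood first in level per kb of all 38 genes with 421 ± 37.8 CPM per kb (SD, n = 3) in mCHERRY libraries, followed by BAM3 with 169 ± 12.2, APS1 with 75.6 ± 7.0 and PGLCT with 65.9 ± 1.58. Of the level of the 7 beta-amylase genes per kb, BAM1 held 67.6% ± 2.93 in mCHERRY and 64.7% ± 1.37 in GmWRI1 libraries.

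BAM5 (AT4G15210, chr4:8666334-8669526), a beta-amylase outside the plastid known from phloem, was the single down-regulated starch gene. It had 36, 38 and 21 counts in mCHERRY and 39, 15 and 8 in GmWRI1 libraries, or 4.40, 6.17 and 5.20 CPM against 3.33, 2.07 and 1.62 CPM. The groups were apart but the nearest libraries were close. The level fell to 0.480 of that in mCHERRY cells (log2 fold change -1.06, SE 0.32, 95% interval -1.72 to -0.40, edgeR adjusted p = 0.0127). The call rested on single libraries, since the log2 fold change was -0.93 (edgeR adjusted p = 0.0767) without mCHERRY library 2, -0.94 without GmWRI1 library 2 and -0.89 without GmWRI1 library 3. The vascular markers summed to 0.649 to 0.856 CPM in mCHERRY and 0.277 to 0.683 CPM in GmWRI1 libraries, and their part in the BAM5 result was not tested.

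The other beta-amylase genes and the alpha-amylase genes did not pass the adjusted p. BAM2, BAM4 and BAM9, of which BAM4 and BAM9 encode proteins thought to act without catalysis, had log2 fold changes of 0.02, 0.24 and 0.16 with overlapping groups. BAM6 had 1 to 4 counts in each library and was not tested. Alpha-amylases cut inside chains. AMY1, a secreted enzyme and the most abundant of them, measured 35.8, 29.2 and 36.6 CPM in mCHERRY and 31.0, 46.9 and 45.9 CPM in GmWRI1 libraries. Its GmWRI1 libraries spanned a wider range than its mCHERRY libraries, and its log2 fold change of 0.27 (95% interval -0.04 to 0.58, edgeR adjusted p = 0.176) did not pass. AMY3, the chloroplast enzyme, and AMY2, a cytosolic one, had log2 fold changes of -0.23 (edgeR adjusted p = 0.344) and -0.003 (edgeR adjusted p = 0.992).

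Debranching enzymes of breakdown release short chains from branch points. ISA3 (AT4G09020, chr4:5783909-5789100) measured 11.6, 15.1 and 10.4 CPM in mCHERRY and 16.6, 19.6 and 16.4 CPM in GmWRI1 libraries. The groups did not overlap, and the rise was 1.405-fold (log2 fold change 0.49, SE 0.17, 95% interval 0.13 to 0.85, edgeR adjusted p = 0.0319). ISA3 passed the adjusted p in 10 of 14 alternative fits. LDA, the limit dextrinase, had 5 to 15 counts per library, was not tested and overlapped between groups.

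Maltose and short chains are then handled by glucanotransferases and phosphorylases. DPE2, which uses maltose in the cytosol, measured 6.11, 6.65 and 5.94 CPM in mCHERRY and 6.83, 8.02 and 9.51 CPM in GmWRI1 libraries. Every GmWRI1 library was above every mCHERRY library, but the log2 fold change of 0.35 (95% interval -0.12 to 0.81, edgeR adjusted p = 0.249) did not pass. DPE1, which works on short chains in the chloroplast, had 5 to 10 counts per library and was not tested. PHS2 (AT3G46970, chr3:17301394-17306633), the cytosolic glucan phosphorylase gene, measured 22.3, 20.45 and 21.5 CPM in mCHERRY and 33.9, 32.6 and 36.8 CPM in GmWRI1 libraries. Its groups were well apart, with a 1.60-fold rise (log2 fold change 0.68, SE 0.13, 95% interval 0.42 to 0.94, edgeR adjusted p = 0.000221). PHS1, the plastidial phosphorylase gene, had a log2 fold change of 0.35 (95% interval -0.34 to 1.05, edgeR adjusted p = 0.446) and overlapping groups.

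The sugar exporters of the chloroplast envelope stood far apart in level, at 65.9 CPM per kb for PGLCT and 0.631 CPM per kb for MEX1 in mCHERRY libraries. PGLCT (AT5G16150, chr5:5272476-5275815), the plastidial glucose transporter gene, measured 122.5, 127.4 and 122.0 CPM in mCHERRY and 169.4, 173.9 and 170.1 CPM in GmWRI1 libraries. Within each group the libraries lay close together, at 124.0 ± 2.98 CPM (SD, n = 3) and 171.1 ± 2.44 CPM. The rise was 1.38-fold (log2 fold change 0.46, SE 0.09, 95% interval 0.28 to 0.64, edgeR adjusted p = 0.000218) and passed the adjusted p in each of 14 alternative fits. MEX1, the maltose exporter through which most carbon leaves the chloroplast at night, had 3 to 8 counts per library and was not tested. A share of 46.0% of its 36-base words also occurs in a counted neighbour, AT5G17523, so reads that match both would have been discarded and its level is uncertain.

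**Figure D4:**
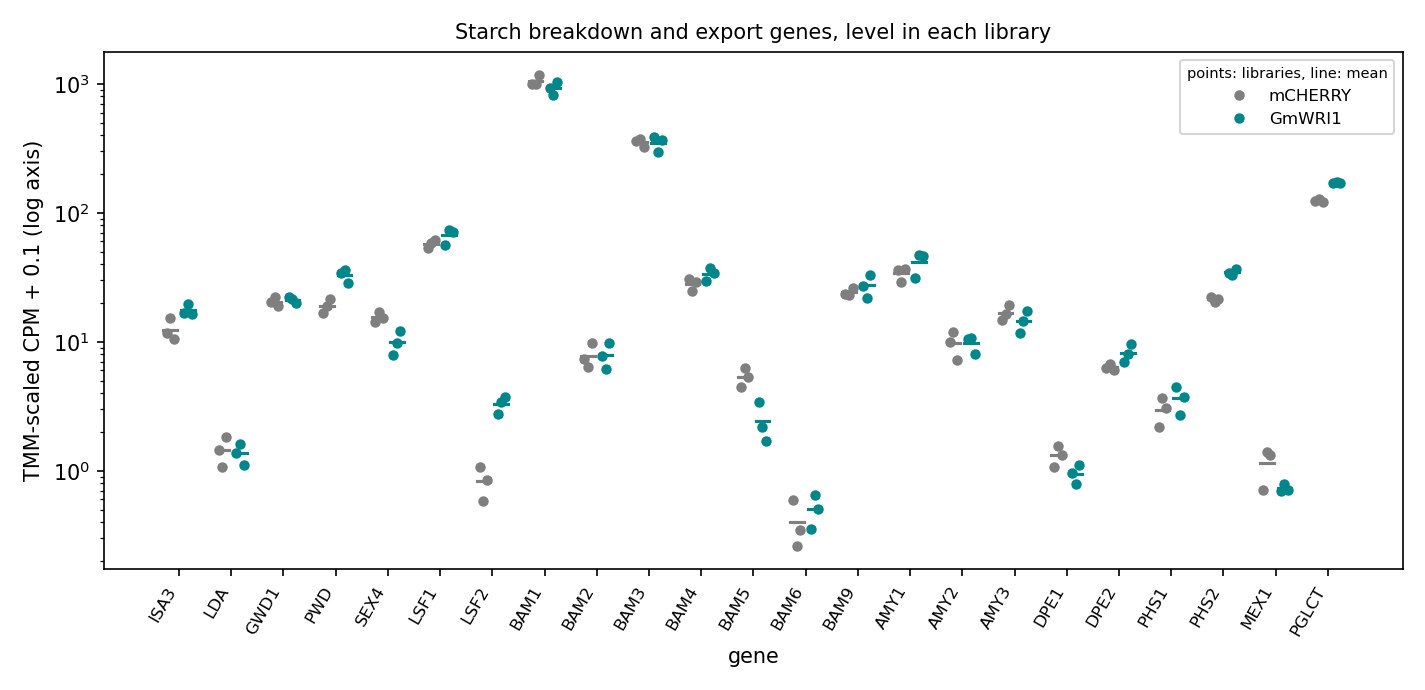
Level of each starch breakdown and export gene in the 3 mCHERRY (grey) and 3 GmWRI1 (teal) libraries, as TMM-scaled CPM plus 0.1 on a log axis (vertical), by gene (horizontal). Points are libraries and lines are group means. BAM1 and BAM3 lie far above the rest and overlap between groups, LSF2, PWD, PHS2, ISA3, DPE2 and PGLCT lie higher and SEX4 and BAM5 lower in all GmWRI1 libraries.

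Summed over genes, synthesis transcripts were higher in GmWRI1 libraries, through SS1 to SS4, and breakdown transcripts overlapped. The 15 synthesis genes together took 350.0, 350.2 and 327.5 CPM in mCHERRY and 394.7, 362.6 and 390.1 CPM in GmWRI1 libraries. The 23 breakdown genes together took 1766, 1796 and 1916 CPM in mCHERRY and 1799, 1643 and 1925 CPM in GmWRI1 libraries. The breakdown sum followed BAM1 and BAM3, which made up 77.6% ± 0.583 (SD, n = 3) of it in mCHERRY and 71.5% ± 2.90 in GmWRI1 libraries. Without BAM1 and BAM3, it was 409.6 ± 9.28 CPM in mCHERRY and 508.3 ± 26.6 CPM in GmWRI1 libraries. These sums describe the libraries and carry no test.

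Further genes of starch metabolism were taken from a list of 19 that act beside the 38, such as transporters that feed the chloroplast and proteins that start granules. Like the 38, this list was drawn up with earlier results of these data known, so its shares are a description. Of the 17 tested, 3 were up-regulated (17.6%, beside 9.44% of all tested genes) and 0 were down-regulated. At the adjusted p alone, 8 (47.1%) were higher and 1 (5.88%) was lower, beside 20.4% and 14.6% of all tested genes. The 3 were PGI1, GPT1 and NTT2, whose proteins act in the plastid or its envelope. PGI1 (AT4G24620), the plastidial phosphoglucose isomerase one step ahead of PGM1, measured 22.7, 21.4 and 25.5 CPM in mCHERRY and 159.4, 209.2 and 160.0 CPM in GmWRI1 libraries. Its 7.64-fold rise (log2 fold change 2.93, SE 0.12, edgeR adjusted p = 4.30e-14) exceeded every fitted value among the 38 genes. GPT1 (AT5G54800), a glucose 6-phosphate translocator of the plastid, had counts of 18, 7 and 3 in mCHERRY and 59, 46 and 19 in GmWRI1 libraries (log2 fold change 1.78, SE 0.37, edgeR adjusted p = 0.000646). NTT2 (AT1G15500), a plastidial ATP/ADP carrier, measured 30.45, 27.7 and 28.2 CPM in mCHERRY and 60.65, 64.8 and 62.5 CPM in GmWRI1 libraries (log2 fold change 1.11, SE 0.11, edgeR adjusted p = 5.09e-08). The listed genes GPT2 and NTT1 were more abundant and were not called. In mCHERRY libraries GPT2 stood at 180 CPM per kb against 0.749 for GPT1, and NTT1 at 290 against 13.2 for NTT2. The log2 fold change was 0.34 for GPT2 (edgeR adjusted p = 0.00326) and -0.10 for NTT1 (edgeR adjusted p = 0.409). PGI1, GPT1 and NTT2 were higher in every GmWRI1 library, as were 24.9% of all tested genes. GPT1, which reached the filter in 1 mCHERRY library, was tested only because of its GmWRI1 libraries. PTST1 and ESV1 of this list also passed the filter only with their GmWRI1 libraries. The median log2 fold change of the 17 was 0.34, beside -0.01 over all tested genes, with a range of -0.43 to 2.93. Of the 18 listed genes with reads, 11 (61.1%) held an AW Box in the 500 bases downstream of the start, beside 41.2% of nuclear genes with reads. PGI1, GPT1 and NTT2 were among the 11. BE1 had 3 to 7 counts per library and was not tested, and APS2 was listed in no library.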

How the data were processed

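RNA was measured in 3 mCHERRY and 3 GmWRI1 protoplast libraries, with groups read from the sample titles. The authors removed ribosomal reads and aligned the rest with Bowtie 0.12.7 to TAIR10 primary transcripts, allowing 2 mismatches and a single best location, and deposited raw counts per transcript. Reads shared by near-identical or overlapping transcripts are lost, and use of strand is not given in the sources used here. Of 38 starch genes, 27 share no 36-base word with another annotated locus. A line without a gene name (39.4% to 63.3% of reads) was left out. The authors also deposited a signal table of 15541 transcripts, made with edgeR 3.10.5 as counts divided by 1 constant per library. It was checked and holds 35 of the 38 genes, but was not tested. All per-sample columns were matched, so 0 were set aside.

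The quasi-likelihood F test of edgeR 4.0.16 was run in R 4.3.3 on the counts after filterByExpr (minimum count 10) and TMM scaling, with a term for group alone, and p-values were adjusted by Benjamini-Hochberg over 14762 genes. The SE is the absolute log2 fold change over the square root of F. DESeq2 1.42.0 and other edgeR settings served as alternatives, and scripts were tested on simulated data. A count of 0 allows up to 3 counts, or 0.256 to 0.742 CPM, for counting error only. Each p-value sets the group difference against the spread between these libraries, estimated with information from all tested genes. Gene positions and sequences come from RefSeq TAIR10.1, matched by transcript identifier to 38 of 38 genes. Rankings of genes by level use CPM per kb of transcript. Sums over genes and shares of such sums are in plain CPM unless given per kb, so longer transcripts weigh more in them.

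The 38 genes, the further 19 and the marker lists were chosen with earlier results of these data known. Called genes, genes past the adjusted p and the leading gene of each enzyme family per kb in mCHERRY libraries are given per library, with others by range and count.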

Additional observations from a re-analysis of the deposited data

How the results depend on the processing

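Of the single-gene values under 14 alternative fits, 438 kept their direction and their call by both limits together, 6 in 3 genes lost a call, 2 in GBSS1 gained one and 16 in 6 genes changed sign. At the adjusted p alone, SBE2.2 passed in 8 of the 14, ISA3 in 10, SEX4 and BAM5 in 13, and AMY1 and LSF1 in 1 each. LSF2, PGM1 and ISA1 stayed up-regulated throughout, but they passed the main low-count filter only through their higher GmWRI1 libraries. Their calls in these fits are therefore no added support for a change. Leaving out 1 library at a time gave 4 to 5 up-regulated and 0 to 1 down-regulated starch genes, 2 to 4 lower at the adjusted p alone, 0 to 1 down-regulated synthesis genes (GBSS1), 1 to 2 lower synthesis genes, 0 to 1 down-regulated breakdown genes (BAM5) and 1 to 2 lower breakdown genes. It moved the synthesis median between -0.0059 and 0.43. With library size alone or DESeq2, 1 synthesis gene was lower at the adjusted p alone. With no filter on low counts the synthesis median was 0.028. An AW Box lay within 250 bases downstream of the start in 10 genes (26.3%, beside 21.4% of nuclear genes with reads) and within 500 bases upstream in 11 (28.9%, beside 18.9%).

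Among single genes, the sign turned only in 6 that passed the adjusted p in none of these fits. AMY2 was 0.035 with library size alone, 0.0057 with no filter, 0.0055 with the replicate block and -0.14 to 0.15 without single libraries. BAM3 was 0.016 with library size alone and -0.096 to 0.083 without single libraries. Without single libraries, APL2 ranged from -0.070 to 1.20, APS1 from -0.055 to 0.088, BAM2 from -0.12 to 0.17 and ISA2 from -0.83 to 0.03. The cause was not tested.

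With the replicate number as a block, 5 starch genes were up-regulated and 1 was down-regulated, and no call changed. The deviations of same-numbered libraries correlated weakly, at 0.111, -0.012 and 0.046 for numbers 1, 2 and 3. Libraries 1 and 3 correlated best with their own number and libraries 2 did not. With 3 libraries per group, these values cannot decide whether same-numbered libraries shared a preparation. APL4, LDA, BAM6, DPE1 and MEX1, with at most 15 counts in any library, did not pass the filter at this depth. With no filter their edgeR adjusted p ranged from 0.536 to 0.983.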
